A study of Mus musculus with 39 samples.

Results

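The 10 tumours described here came from mice treated with immune checkpoint therapy (ICT) alone, and were chosen by their treatment label out of 39 tumours sequenced. All were subcutaneous AB1-HA tumours in BALB/c mice 8 to 10 weeks old. The study as a whole used female and male mice, and 4 Y-linked genes had 0 counts in all 10 ICT tumours. The AB1-HA line derives from a BALB/c mesothelioma, to which the haemagglutinin gene of influenza was added as a model antigen. ICT was anti-CTLA-4 (clone 9H10, 1 dose) with anti-PD-L1, 100 µg of each antibody from day 7, and in the study's design tumours were resected for RNA-seq on day 9. The 10 tumours of mice given PBS on the same model served only to compare the spread between tumours, no difference in mean level was tested, and 19 other tumours were not used. The labels give no outcome for the ICT mice, so no tumour is called responding or non-responding. Tumours are named by the number in their label (ICT 61 to 65 and ICT 81 to 85, a pair of name series of 5). The labels do not say what the series stand for, and nothing ties a PBS tumour to an ICT tumour.

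Checkpoint antibodies release T cells from inhibition by CTLA-4 or by the PD-1 receptor. T cells and NK cells that are activated in a tumour secrete interferon-gamma, which switches on antigen presentation, the guanylate-binding proteins, chemokines that draw in further T cells, and Cd274 itself. Cd8a encodes a chain of the CD8 co-receptor of cytotoxic T cells, Ptprc encodes CD45, a phosphatase on the surface of nearly all leukocytes, and Cd274 encodes PD-L1, the ligand of PD-1 and the target of one of the antibodies used, which tumour cells and myeloid cells both express. These 3 genes are called the anchor genes below. Because whole tumours were sequenced, fewer cells of a type and less RNA per cell cannot be told apart, for these or any other genes.

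Counts on genes totalled 14033046 to 21095905 per ICT tumour (median 17002364) and 16155683 to 23114796 per PBS tumour. The ICT tumours correlated with each other at r between 0.9832 and 0.9965 across genes, and no columns of counts were identical. Values are log2 CPM (counts scaled to a common library size, edgeR with TMM scaling and a prior count of 2) unless said otherwise, and 14155 genes passed the filter on low counts. Total counts did not move with the leukocyte level (r=-0.05 with Ptprc over 10 tumours, permutation p=0.891), whereas the TMM scaling factor fell as Ptprc rose (r=-0.77, p=0.0112, adjusted over 3 library measures p=0.0336; Spearman's rho=-0.72, p=0.0235, adjusted p=0.0706; r=-0.44 without ICT 63 and 85). The part of the scaling factor in the results below was not tested beyond the use of DESeq2's size factors, under which the counts of genes called here stayed within 1.5 times.

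The anchor genes spanned a wide range within the ICT group. Cd8a (ENSMUSG00000053977.13, chr6:71373427-71379173, GRCm38) was 3.21 in ICT 61, 2.10 in ICT 62, 4.85 in ICT 63, 2.37 in ICT 64, 2.6 in ICT 65, 3.10 in ICT 81, 5.07 in ICT 82, 2.66 in ICT 83, 2.69 in ICT 84 and 1.89 in ICT 85. ICT 63 and 82 stood apart from the other 8 by a gap of 1.64, which is 0.516 of the whole range, and ICT 85, 62 and 64 lay below the lowest of the PBS tumours (2.38 to 3.95). These levels rest on 61 to 469 counts of Cd8a per tumour. Ptprc (ENSMUSG00000026395.16, chr1:138062861-138175708) was 8.47, 8.10, 9.61, 7.82 and 8.32 in ICT 61 to 65, and 8.54, 9.16, 8.51, 8.31 and 7.35 in ICT 81 to 85. Cd274 (ENSMUSG00000016496.7, chr19:29367455-29388095) was 6.98, 6.88, 9.05, 5.70 and 6.58 in ICT 61 to 65, and 7.67, 7.95, 7.61, 7.30 and 4.72 in ICT 81 to 85. ICT 63 was highest for Ptprc and Cd274 and second for Cd8a, ICT 85 was lowest for each of the 3, and the levels of Ptprc and Cd274 ran without a gap of the kind seen in Cd8a.

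**Figure D1:**
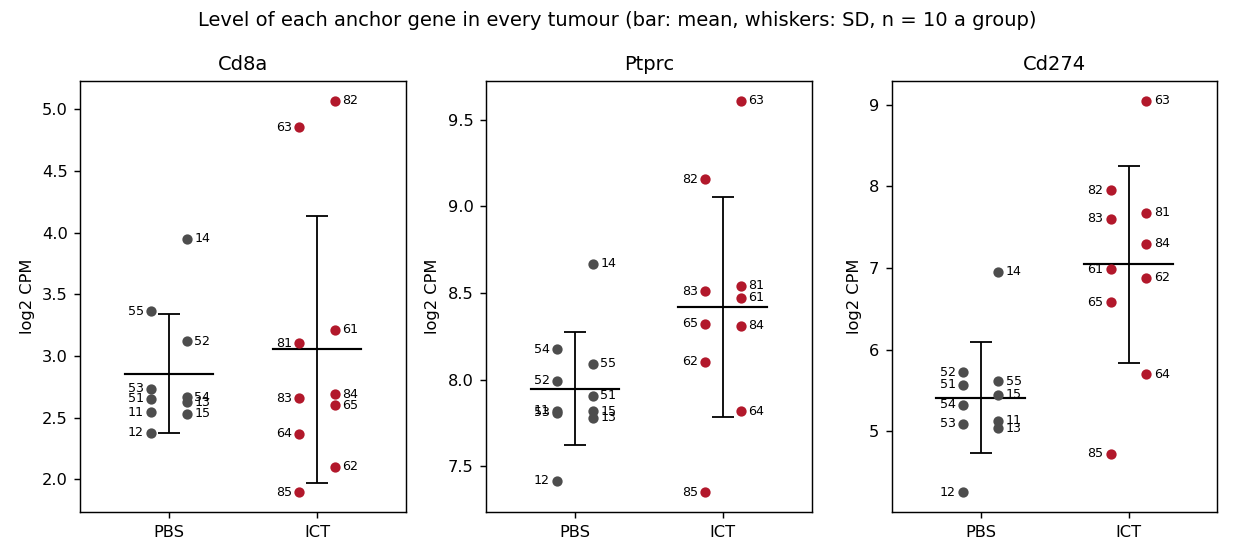
Level of Cd8a, Ptprc and Cd274 (log2 CPM) in each of 10 PBS and 10 ICT tumours, numbered by their labels, with the mean as a bar and the SD as whiskers. ICT 63 and 82 sit above the rest for Cd8a and Ptprc, and ICT 85 is the lowest ICT tumour in each panel.

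From the lowest to the highest ICT tumour the difference was 9.04-fold for Cd8a, 4.79-fold for Ptprc and 20.1-fold for Cd274, against 2.98-fold, 2.38-fold and 6.53-fold among PBS tumours. The SD over 10 tumours was 1.08 for Cd8a in ICT and 0.484 in PBS, a ratio of 2.24. For Ptprc it was 0.634 and 0.326 (ratio 1.94), and for Cd274 1.21 and 0.686 (ratio 1.76). None of these differences in spread passed its test: in a two-sided permutation test of the absolute deviations from the group median, p was 0.202 for Cd8a, 0.183 for Ptprc and 0.174 for Cd274 (adjusted p=0.202 for each over the 3 genes), and in limma across all genes the adjusted p was 0.578, 0.597 and 0.601. The group with the larger SD was ICT for all 3 anchor genes, and the groups overlapped in each.

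The same held across the transcriptome. The median SD of a gene was 0.221 in ICT and 0.149 in PBS tumours, the median ratio was 1.39, and 11334 of 14155 genes (80.1%) had the larger SD in ICT. The SD was more than 2 times larger in ICT for 2446 genes, and less than 0.5 times as large for 94. Genes move together within a tumour, so these counts are a description and carry no p. Gene by gene, 0 genes had a larger and 0 a smaller spread in ICT at an adjusted p below 0.05 in limma (0% of genes in either direction; smallest adjusted p=0.578), while at an unadjusted p below 0.05 there were 1106 larger and 34 smaller. The common biological coefficient of variation that edgeR estimated was 0.230 in ICT and 0.164 in PBS.

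As 1 value per tumour, the distance from the centre of its own group (root mean square over genes, log2 units) was 0.379 ± 0.0929 in ICT and 0.312 ± 0.0387 in PBS (SD, n=10 each). The difference of 0.0668 had a two-sided permutation p=0.0433. ICT 63 lay farthest out at 0.571, followed by ICT 85 at 0.473, ICT 82 at 0.419, ICT 64 at 0.406 and ICT 62 at 0.400, and these 5 exceeded every PBS tumour (0.277 to 0.384). The remaining 5, from ICT 81 at 0.318 to ICT 83 at 0.279, lay within the PBS range. The ICT tumours farthest out were thus at both ends of the Ptprc order. Without ICT 63 and 85 the difference was 0.0292 (permutation p=0.219), and leaving out any single one of ICT 62, 63, 64, 82 or 85 took p above 0.05.

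**Figure D2:**
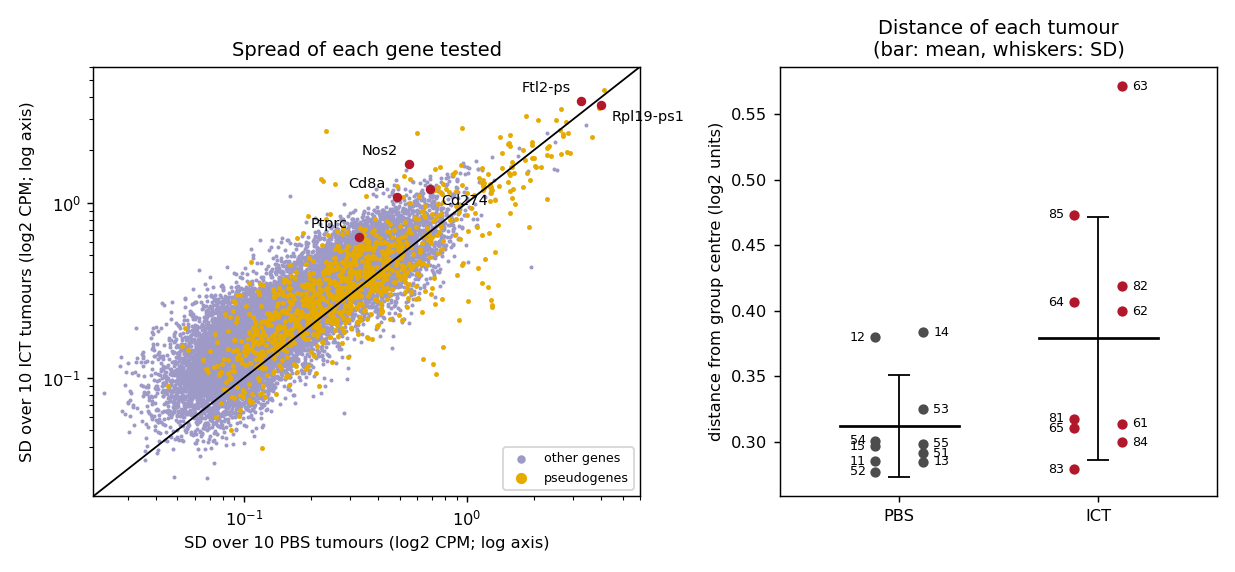
Left, SD of each of 14155 genes over 10 PBS (x) and 10 ICT tumours (y), in log2 CPM on log axes, with the line of equal SD and pseudogenes marked; 80.1% of genes lie above the line. Right, distance of each tumour from the centre of its group with mean (bar) and SD (whiskers); ICT 63 at 0.571 and ICT 85 at 0.473 lie farthest out.

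The genes with the largest SD of all were pseudogenes, which are untranslated copies of other genes. Ranked by SD among 12109 genes whose mean level was 1 log2 CPM or more, the top 15 were pseudogenes without exception. Their SD was 2.42 to 3.82 in ICT and 0.233 to 4.01 in PBS. It was larger in ICT for 9 of 15 (80.1% of all genes), although they were chosen by their SD in ICT. In edgeR 0 of 15 had a slope on an anchor gene at an adjusted p below 0.05. The shares of all genes were 15.7% positive and 13.7% negative on Cd8a, 18.2% and 16.4% on Ptprc, and 15.5% and 11.1% on Cd274. Rpl19-ps1, a copy of the ribosomal protein gene Rpl19, was between 4.55 and 7.11 in 8 tumours but -2.51 in ICT 64 and -1.36 in ICT 65 (SD 3.64, and 4.01 in PBS), while Rpl19 itself had an SD of 0.0749. Ftl2-ps, a copy of the ferritin light chain gene Ftl1, was between 5.68 and 7.15 in ICT 62, 65, 81, 83 and 85 and between -1.24 and 0.84 in the other 5 (SD 3.82, with 0.286 for Ftl1). Processed pseudogenes were 56 of the 100 most variable genes (56%) and 5.93% of the genes ranked. These genes share reads with near-identical copies, and how such reads were assigned is not given in the sources used here, so their levels are uncertain.

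A second ranking, added after the pseudogenes had been seen, took genes typed as protein-coding or as polymorphic pseudogene (Gbp11 is one) and left out Gm and Rik names. Its 14 most variable genes reported here, of which several are known targets of interferon-gamma, were Ly6i, Ido1, Nos2, Acod1, Ubd, Amd2, Fam26f, Dnase1l3, Gbp4, Tlr12, Cxcl9, Gbp11, Gbp8 and Col6a5. ICT 63 was highest for 13 of the 14, with Amd2 as the exception, and ICT 85 was lowest for 12, with Amd2 and Col6a5 as the exceptions. Since the genes were ranked by their SD in ICT, a larger SD there than in PBS, seen for 13, follows in part from the choice (80.1% of all genes). For the 12 without Amd2 and Col6a5, the level in the highest tumour was 23.5 to 85.9 times that in the lowest, and the SD was 1.40 to 1.82 in ICT against 0.547 to 1.30 in PBS.

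Ly6i, a member of the Ly6 family of surface proteins, ranged from -0.51 in ICT 85 and 1.19 in ICT 64 to 4.99 in ICT 82 and 5.92 in ICT 63, the widest range of the 12 (85.9-fold). Its lowest level, in ICT 85, rests on 10 counts, so the fold is uncertain. Nos2, the inducible nitric oxide synthase of activated macrophages, was 3.97, 4.11, 8.19, 2.85 and 4.04 in ICT 61 to 65 and 4.89, 6.12, 5.51, 5.51 and 2.53 in ICT 81 to 85. Its SD was 1.67 in ICT and 0.55 in PBS, and its spread differed at an unadjusted p=0.00488 that did not hold after adjustment (limma, adjusted p=0.578). ICT 63 alone formed the upper end of Nos2, more than 2 log2 units above ICT 82.

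Ido1, which degrades tryptophan and restrains T cells, was 2.09, 2.26, 3.83, 0.48 and 1.36 in ICT 61 to 65 and 3.26, 3.45, 3.09, 2.53 and -1.79 in ICT 81 to 85. Acod1, the enzyme that makes itaconate in macrophages, was 5.22, 5.57, 7.62, 3.49 and 4.74, then 6.01, 6.33, 6.32, 5.37 and 1.80. Cxcl9, a chemokine that attracts T cells bearing CXCR3, was 8.88, 8.75, 10.38, 7.30 and 8.43, then 9.43, 10.22, 9.29, 8.76 and 5.51. In all 3, ICT 85 was farther from the group mean than any other tumour. The Ido1 level in ICT 85 rests on 3 counts, so it depends on the prior count of 2. Gbp4 and Gbp8, guanylate-binding proteins of cell-autonomous defence, overlap on chromosome 5 (105115767-105139586 and 105014150-105139540), so reads may be split between them and their values are uncertain. Amd2 was 4.39 in ICT 85 and 3.71 in ICT 65 and at most 0.88 in the other 8, with a larger SD in PBS (2.55) than in ICT (1.54), and it too is uncertain because it has a near-identical copy. Col6a5, a collagen VI chain, was high at both ends, with 5.33 in ICT 63 and 4.93 in ICT 85 against 1.17 in ICT 61 and 1.19 in ICT 62.

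**Figure D3:**
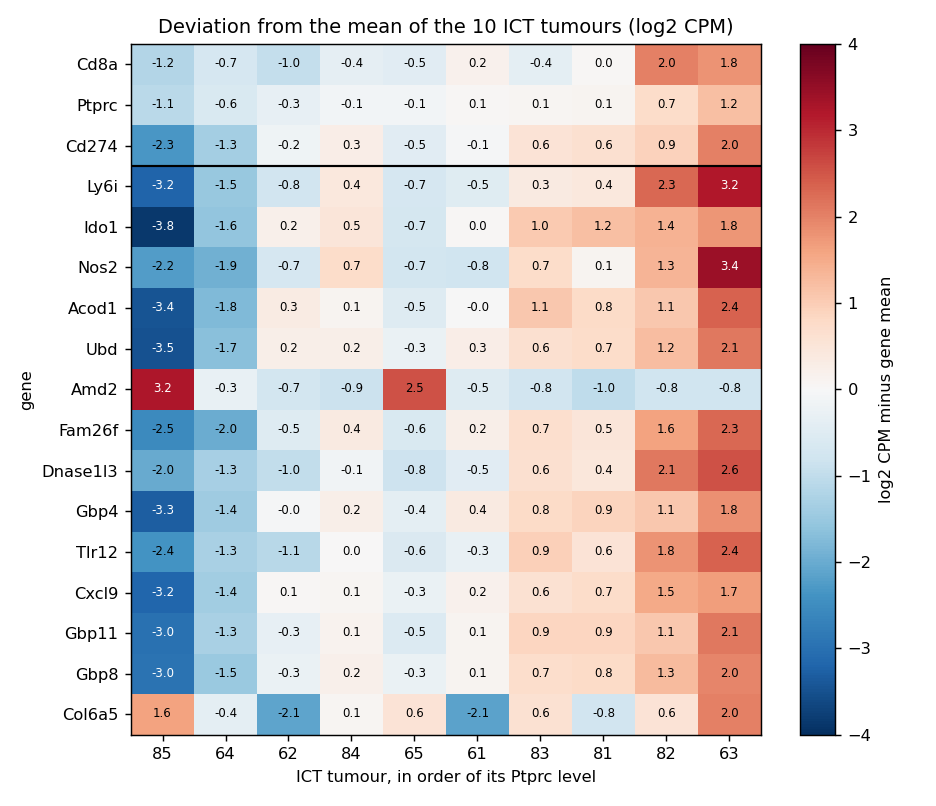
Deviation of each gene from its mean over the 10 ICT tumours (log2 CPM), for the 3 anchor genes above the line and the 14 variable genes of the second ranking below it, with tumours in order of Ptprc. In 12 rows the colours run from low in ICT 85 and 64 to high in ICT 82 and 63; Amd2 and Col6a5 do not.

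The anchor genes moved together. Because Cd8a formed a pair of separate groups of tumours, its correlations are given over the 8 without ICT 63 and 82. Over these, Cd8a and Ptprc had Pearson's r=0.841 (exact permutation p=0.00580, adjusted over 3 pairs p=0.00871) and Spearman's rho=0.810 (exact p=0.0218, adjusted p=0.0327). Cd8a and Cd274 had r=0.718 (exact permutation p=0.0446, adjusted p=0.0446) and rho=0.762 (exact p=0.0368, adjusted p=0.0368). With the 2 of the 8 tumours farthest from the median Cd8a left out as well, r was 0.749 (exact permutation p=0.0889) and 0.603 (exact permutation p=0.203), so neither relation passed its test over 6 tumours. Ptprc and Cd274 over all 10 had r=0.952 (permutation p=0.00016, adjusted p=0.00048) and rho=0.939 (permutation p=0.00025, adjusted p=0.00075), and without ICT 63 and 85 r was 0.857 (exact permutation p=0.00898). After each name series was centred on its own mean, r of Ptprc with Cd274 was 0.955.

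**Figure D4:**
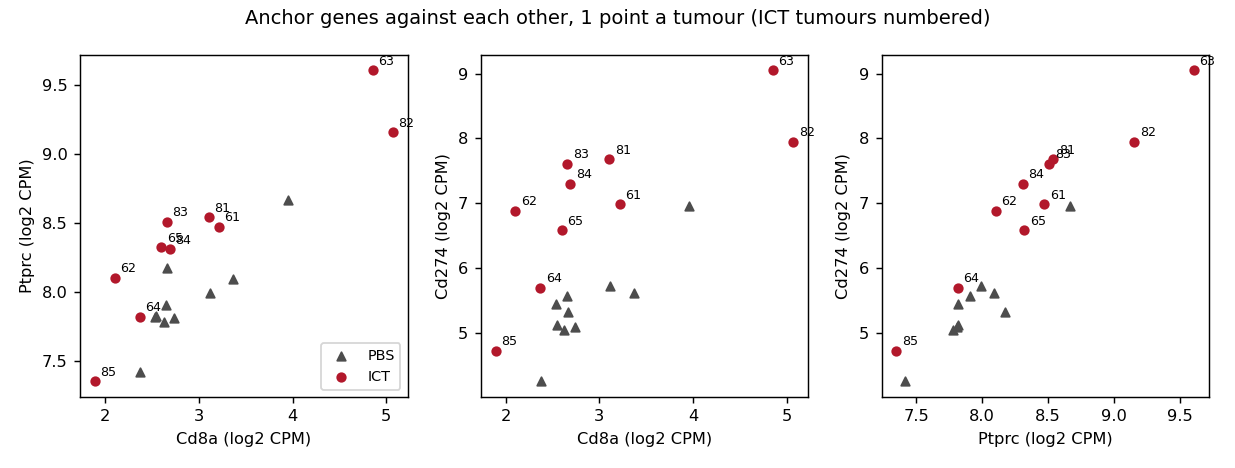
The 3 pairs of anchor genes plotted against each other (log2 CPM), 1 point a tumour, ICT as circles with their numbers and PBS as triangles. In the panels with Cd8a on the x axis ICT 63 and 82 lie apart from the other 8 ICT tumours, while Ptprc and Cd274 run along 1 line over all 10 (r=0.952).

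Each gene was then regressed on each anchor gene within the ICT tumours (edgeR's quasi-likelihood test; the slope is in log2 units per log2 unit of the anchor, called at an adjusted p below 0.05). On Cd8a, 2217 genes (15.7%) had a positive and 1936 (13.7%) a negative slope. On Ptprc there were 2581 positive (18.2%) and 2324 negative (16.4%), and on Cd274 2195 positive (15.5%) and 1571 negative (11.1%). Without ICT 63 and 82 these became 0 and 0 for Cd8a (smallest adjusted p=0.0897), 658 and 204 for Ptprc, and 826 and 178 for Cd274. Of the genes called without the pair, 644 and 186 for Ptprc and 812 and 171 for Cd274 were among those called on all 10. Of the genes called on Cd8a over all 10, 193 of the 2217 positive slopes had the opposite sign without the pair, so most of these kept their direction while none passed the test on 8 tumours. Without ICT 82 alone 2079 and 1878 genes were called on Cd8a, and without ICT 63 alone 551 and 230. Slopes on Cd274 kept the most calls without the pair. The pair was set apart by its Cd8a levels, and without it Cd8a spanned 1.89 to 3.21, while Cd274 still spanned 4.72 to 7.67. Here and below, the larger loss of calls on Cd8a therefore cannot be read as a difference between the anchor genes in what follows them. Within PBS tumours the counts were 749 and 197 for Cd8a (5.29% and 1.39%), 1124 and 655 for Ptprc (7.94% and 4.63%) and 1018 and 418 for Cd274 (7.19% and 2.95%). A test of the difference between the ICT and PBS slopes called 0 genes on each anchor gene (edgeR interaction; at an unadjusted p below 0.05 the slope was higher in ICT for 214 genes and lower for 179 on Cd8a, 333 and 254 on Ptprc, and 254 and 186 on Cd274), so no slope is shown to belong to ICT tumours.

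The genes named by the smallest p on Cd8a were Tspan33, Cd3g, Cd38, Klrc1, Arl5c and Cd8b1 for positive slopes. Cd3g, a chain of the T cell receptor complex, was 3.13, 2.92, 4.70, 2.76 and 3.18 in ICT 61 to 65 and 3.04, 4.74, 2.89, 2.76 and 2.69 in ICT 81 to 85, a slope of 0.69 ± 0.06 (SE; edgeR adjusted p=0.000357). The other 8 tumours spanned less than 0.5 log2 units of Cd3g between them. Cd38, an ectoenzyme of activated lymphocytes and myeloid cells, had a slope of 1.0 ± 0.09, Klrc1, the NKG2A receptor of NK and CD8 T cells, 0.82 ± 0.08, and Cd8b1, the partner chain of CD8, 1.01 ± 0.10 (each adjusted p=0.000357). Dusp9, a phosphatase that inactivates MAP kinases, had a slope of -0.56 ± 0.06 (adjusted p=0.000357), with 3.12 in ICT 63, 3.57 in ICT 82 and 4.24 to 5.05 elsewhere. Without ICT 63 and 82 the slope was 0.26 for Cd3g, 0.88 for Cd38 (adjusted p=0.233) and 1.04 for Cd8b1 (adjusted p=0.238), and none of the genes was called.

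On Ptprc the smallest p of positive slopes belonged to Cybb, Fyb, AW112010, Klrk1, Ms4a4b and Birc3. Cybb, the catalytic subunit of the phagocyte NADPH oxidase, was 8.13, 7.79, 9.80, 7.12 and 8.10 in ICT 61 to 65 and 8.48, 9.27, 8.16, 8.20 and 6.77 in ICT 81 to 85 (slope 1.39 ± 0.06, adjusted p=1.02e-07). AW112010, a transcript induced by interferon-gamma in immune cells, had a slope of 1.97 ± 0.09 (adjusted p=1.3e-07). Both followed the order of the Ptprc levels closely, ICT 85 and 64 at the bottom, ICT 82 and 63 at the top. Mfap4, a protein of elastic fibres, ran the other way, from 4.88 in ICT 63 to 7.14 in ICT 85, with a slope of -0.90 ± 0.08.

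On Cd274 the smallest p of positive slopes belonged to Gbp11, Hk3, Samhd1, Gbp8, Serpina3g and Il12rb1. Gbp11 had a slope of 1.15 ± 0.05, Serpina3g, a serine protease inhibitor of immune cells, 1.12 ± 0.06, and Hk3, the hexokinase of leukocytes, 0.93 ± 0.04. Serpina3g was 7.49, 7.54, 9.59, 6.06 and 7.10 in ICT 61 to 65 and 8.57, 9.05, 8.48, 8.07 and 5.16 in ICT 81 to 85. Its order over the tumours was nearly that of Cd274, and its slope was 1.17 ± 0.05 without ICT 63 and 82 (edgeR adjusted p=1.17e-07). Samhd1, which depletes the nucleotides that viruses need, had a slope of 0.53 ± 0.03 (adjusted p=1.21e-07), and Il12rb1, a receptor chain for IL-12 and IL-23, 0.96 ± 0.05 (adjusted p=1.72e-07). Col6a2 and Col6a1, chains of collagen VI, had slopes of -0.35 ± 0.03 (adjusted p=9.45e-06) and -0.33 ± 0.03, with Col6a2 at 11.04 in ICT 85 and 9.48 in ICT 63. Of the 14 variable genes of the second ranking, 12 had a positive slope on Cd274 (1.14 to 1.58), 12 on Ptprc and 9 on Cd8a. Among all genes the shares were 15.5%, 18.2% and 15.7%. Without ICT 63 and 82 the counts were 12, 11 and 0. Amd2 had a negative slope on Cd274 (-1.13, edgeR adjusted p=0.0215), and Col6a5 had no called slope. The 14 were chosen by their SD in these same tumours and move together, so their counts are a description only.

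Promoters of 3 genes are printed to show what a member of the Cd274-following group can carry upstream of its start: the letters TTCNNNGAA, the core of the interferon-gamma-activated element, and a GAAA pair (GAAA, any 2 bases, GAAA), the core of the interferon-stimulated element that IRF proteins bind, each searched on both strands in the 250 bases before the start. Sequences are from RefSeq (GRCm38.p6), written 5′ to 3′ on the gene's strand, with matches in capitals.
Gbp5, chr3:142496684-142496933, plus strand: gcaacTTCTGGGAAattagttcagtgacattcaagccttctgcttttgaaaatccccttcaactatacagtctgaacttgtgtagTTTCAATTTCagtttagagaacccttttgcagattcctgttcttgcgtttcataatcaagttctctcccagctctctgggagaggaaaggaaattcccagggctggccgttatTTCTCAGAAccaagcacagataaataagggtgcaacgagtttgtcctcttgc
Serpina3g, chr12:104235897-104236146, plus strand: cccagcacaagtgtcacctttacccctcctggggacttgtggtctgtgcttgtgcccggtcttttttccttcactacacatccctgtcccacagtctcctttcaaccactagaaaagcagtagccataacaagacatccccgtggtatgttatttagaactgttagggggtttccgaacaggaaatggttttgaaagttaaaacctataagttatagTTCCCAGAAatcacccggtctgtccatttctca
Slamf8, chr1:172590569-172590818, minus strand: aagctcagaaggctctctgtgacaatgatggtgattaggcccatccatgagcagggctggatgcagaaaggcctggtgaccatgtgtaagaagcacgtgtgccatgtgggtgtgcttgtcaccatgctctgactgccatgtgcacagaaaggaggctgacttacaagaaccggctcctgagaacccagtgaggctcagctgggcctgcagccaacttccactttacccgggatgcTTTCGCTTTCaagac

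Gbp5, a guanylate-binding protein that promotes inflammasome assembly, has TTCNNNGAA beginning 245 and 52 bases before its start and the GAAA pair, read on the other strand, 165 bases before it. Serpina3g has TTCNNNGAA 33 bases before its start, and Slamf8, a receptor of activated macrophages, has the GAAA pair 15 bases before its start. Of the 2195 genes with a positive slope on Cd274, 1597 had a promoter in the table. In these, TTCNNNGAA was found in 9.83%, the GAAA pair in 6.64% and either in 15.22%. Among the 9656 genes tested that had a promoter the shares were 7.44%, 3.48% and 10.49%. Among all 27025 genes with a promoter they were 8.13%, 3.46% and 11.13%. A gene with several promoters counted as a match if any of them held the motif. A match is a run of letters and not a measured binding site, and the window of Cd274 itself holds neither motif. The 3 were picked for their matches.

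Lists of genes were then followed for the lymphocyte, antigen presentation, interferon, myeloid, stromal and tumour compartments. Over all genes the median SD ratio of ICT to PBS was 1.39, and 80.1% of genes had the larger SD in ICT. The shares called were 15.7% positive and 13.7% negative on Cd8a, 18.2% and 16.4% on Ptprc, and 15.5% and 11.1% on Cd274. Each count below is to be read beside these shares. T cell genes had a median SD ratio of 2.19, with the SD larger in ICT for 13 of 13. On Cd8a 13 of 13 had a positive slope, on Ptprc 13 and on Cd274 12; without ICT 63 and 82 these were 0, 2 and 2. Of the CD8 and cytotoxic T cell genes other than Cd8a, 8 of 8 had a positive slope on Cd8a. Their summed level with Cd8a was 403 CPM in ICT 63 and 340 CPM in ICT 82, against a lowest of 50.5 CPM in ICT 64. Ccl5, a chemokine made by cytotoxic cells, was 4.50, 4.76, 7.75, 3.89 and 5.13 in ICT 61 to 65 and 5.18, 7.47, 5.45, 4.96 and 4.45 in ICT 81 to 85 (slope on Cd8a 1.07 ± 0.13, adjusted p=0.00116). NK cell genes had positive slopes for 5 of 5 on each anchor gene.

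Within the list of CD4 and regulatory T cells 6 of 8 genes had a positive slope on Cd8a and on Ptprc. The 2 that did not were Foxp3 and Ctla4. Foxp3, the regulatory T cell transcription factor, was 2.69, 2.54, 3.61, 3.41 and 3.21 in ICT 61 to 65 and 2.58, 3.24, 3.28, 2.91 and 3.53 in ICT 81 to 85 (slope on Cd8a 0.07, adjusted p=0.632). Its highest levels were in ICT 63 and in ICT 85, the tumours at the top and the bottom of the Ptprc order. Ctla4, the receptor blocked by anti-CTLA-4, had a slope of 0.28 on Cd8a (adjusted p=0.0731). Pdcd1, encoding PD-1, had a slope of 0.58 ± 0.07 on Cd8a (adjusted p=0.000591), and Pdcd1lg2, its second ligand PD-L2, ranged from 2.65 in ICT 64 to 7.03 in ICT 63 (slope on Ptprc 1.87 ± 0.26, adjusted p=0.000689). B and plasma cell genes had positive slopes for 6 of 8 on Cd8a and Ptprc and 3 of 8 on Cd274.

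Antigen presentation followed in both classes. MHC class I and immunoproteasome genes had positive slopes for 10 of 10 on Ptprc and on Cd274 and 4 of 10 on Cd8a, and the first 2 of these counts stayed at 10 without ICT 63 and 82. B2m, the light chain of class I molecules, was 11.21, 11.18, 11.98, 10.41 and 10.86 in ICT 61 to 65 and 11.51, 11.66, 11.26, 11.11 and 10.31 in ICT 81 to 85 (slope on Cd274 0.42 ± 0.04, adjusted p=6e-06). Nlrc5, the transactivator of class I genes, had a slope of 0.58 on Cd274 (adjusted p=1.9e-05). MHC class II genes had positive slopes for 7 of 7 on each anchor gene, of which 0 on Cd8a, 2 on Ptprc and 4 on Cd274 were left without ICT 63 and 82. H2-Aa, a class II chain of antigen-presenting cells, was 10.98 in ICT 63 and 10.96 in ICT 82 and 8.10 to 9.5 in the other 8 (slope on Cd8a 0.81 ± 0.10, adjusted p=0.00096). Class II thus had the same pair of high tumours as Cd8a, with summed levels of 5725 and 5482 CPM.

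Interferon response genes divided. On Cd274, 16 of 24 had a positive slope, on Ptprc 15 and on Cd8a 1, and without ICT 63 and 82 these were 16, 15 and 0. Irf1, a transcription factor of the interferon response, was 9.01, 8.90, 9.85, 7.94 and 8.45 in ICT 61 to 65 and 9.31, 9.33, 9.25, 8.79 and 7.19 in ICT 81 to 85 (slope on Cd274 0.63 ± 0.04, adjusted p=1.75e-06; on Cd8a 0.46, adjusted p=0.0589). Gbp5 had a slope of 1.03 ± 0.06 (adjusted p=3.03e-07) and Cxcl11, another CXCR3 chemokine, 1.01 ± 0.12 (adjusted p=0.000229). The 8 not called on Cd274 were Mx1, Rsad2, Irf7, Usp18, Ifit1, Oasl1, Oas1a and Ifit3, which are antiviral genes classically induced by type I interferon; they were grouped in this way after their values were seen. Rsad2 was 5.45, 6.24, 5.66, 5.38 and 5.06 in ICT 61 to 65 and 5.78, 4.69, 5.57, 5.25 and 4.79 in ICT 81 to 85 (slope on Cd274 0.13, adjusted p=0.495). ICT 82, high for Cxcl9 and Gbp11, was the lowest for Rsad2. Summed over the list, the level ran from 1525 CPM in ICT 85 and 3154 CPM in ICT 64 to 12931 CPM in ICT 63.

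Myeloid lists were mixed. Macrophage genes had positive slopes for 7 of 10 on Cd8a, 8 on Ptprc and 7 on Cd274, among them the complement chains C1qa, C1qb and C1qc, but not Apoe or Mrc1. Neutrophil genes had positive slopes for 7 of 8 on Cd274, 4 on Ptprc and 2 on Cd8a; Csf3r, the G-CSF receptor, had 0.52 on Cd274 (adjusted p=0.000155). Monocyte genes had 4, 5 and 5 of 6 on Cd8a, Ptprc and Cd274, and Chil3 had an SD of 1.07 and no called slope. Dendritic cell genes had 8, 7 and 3 of 11 positive, the 3 on Cd274 being Ccl22, Clec9a and Xcr1, while Cd209a had a negative slope there. Of the osteoclast-like genes 0 of 6 were called on any anchor gene, with median slopes of -0.38 on Cd8a, -0.44 on Ptprc and -0.13 on Cd274. Acp5, the tartrate-resistant acid phosphatase of osteoclasts, was 8.34, 7.31, 6.16, 8.0 and 6.86 in ICT 61 to 65 and 6.48, 6.11, 7.98, 7.97 and 6.37 in ICT 81 to 85. Its high tumours were ICT 61, 64, 83 and 84, and it was lowest in ICT 82 and 63; the summed list ran from 388 CPM in ICT 82 to 1551 CPM in ICT 61.

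**Figure D5:**
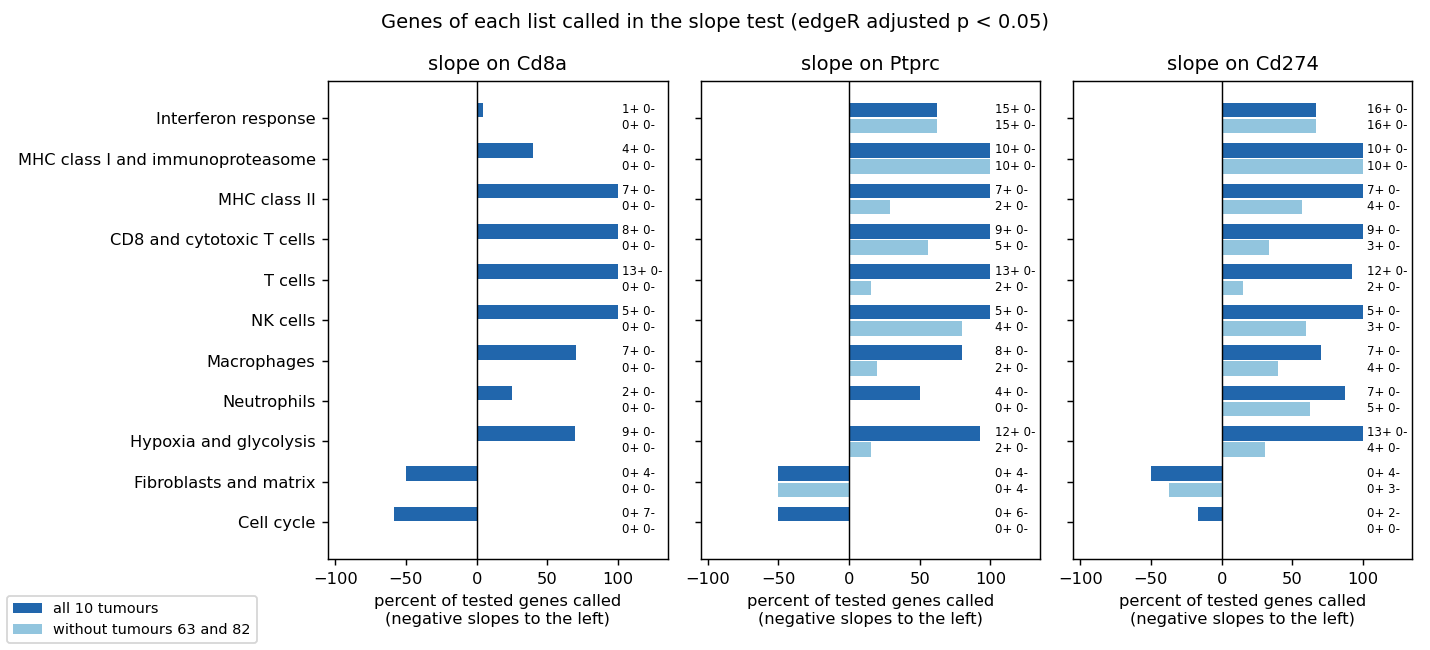
Percent of the tested genes of 11 lists with a positive (right) or negative slope (left) on Cd8a, Ptprc and Cd274 at an edgeR adjusted p below 0.05, on all 10 ICT tumours and without ICT 63 and 82, with the counts printed beside the bars. For interferon response and MHC class I the bars on Ptprc and Cd274 are of the same length in both, and the bars on Cd8a are gone without the pair. The pair was set apart by its Cd8a levels, so leaving it out narrows Cd8a the most.

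Part of the fibroblast and cell cycle genes had negative slopes. Of the fibroblast and matrix genes, 4 of 8 had a negative slope on each anchor gene. Without ICT 63 and 82 there were 4 on Ptprc, 3 on Cd274 and 0 on Cd8a. Col3a1, a fibrillar collagen, was 13.20, 13.37, 12.80, 13.80 and 13.54 in ICT 61 to 65 and 13.11, 13.06, 13.40, 13.45 and 14.04 in ICT 81 to 85 (slope on Ptprc -0.54 ± 0.06, adjusted p=5.64e-05). The summed list ran from 13450 CPM in ICT 63 to 28902 CPM in ICT 85. Cell cycle genes had the largest median SD ratio of the lists followed here, at 2.66 (12 of 12 larger in ICT), and 7 of 12 had a negative slope on Cd8a, 6 on Ptprc and 2 on Cd274. Cdk1, the mitotic kinase, was 6.57 in ICT 63 and 7.02 in ICT 82 and 7.30 to 7.62 in the other 8 (slope on Cd8a -0.22 ± 0.05, adjusted p=0.00808). Mki67 and Top2a were among the 5 not called on Cd8a, and 0 of 12 were called on any anchor gene without ICT 63 and 82.

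Hypoxia and glycolysis genes rose with the leukocyte genes. Their median SD ratio was 2.2, with 12 of 13 larger in ICT and 6 at an unadjusted p below 0.05 in the spread test, none of which held after adjustment. All 13 had a positive slope on Cd274, 12 on Ptprc and 9 on Cd8a, which fell to 4, 2 and 0 without ICT 63 and 82. Ndrg1, a gene induced by low oxygen, was 6.81, 6.95, 8.57, 6.76 and 6.74 in ICT 61 to 65 and 7.33, 7.93, 7.29, 7.81 and 7.00 in ICT 81 to 85 (SD 0.609, and 0.157 in PBS; slope on Cd274 0.38 ± 0.10, adjusted p=0.017). Slc2a1, the glucose transporter GLUT1, had a slope of 0.47 ± 0.07 (adjusted p=0.000659).

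Lists of other tissues and cells differed in spread. Over all genes the SD was larger in ICT for 80.1%. Skeletal muscle genes had the larger SD in ICT for 1 of 15 (median ratio 0.804), red blood cell genes for 0 of 5 and adipose genes for 5 of 9. Endothelial genes (7 of 9) and nerve and Schwann cell genes (4 of 5) were near the share of all genes. For immediate early and heat shock genes it was larger in 5 of 11. Muscle genes had a positive slope for 1 of 15 on Cd8a and for 0 on Ptprc and Cd274. The larger SD in ICT was thus not seen in every list. No list was tested for its spread as a whole, and genes of a list can move together, so these counts are a description.

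Cd8a and Cd274 were placed in 1 fit to see which genes followed each at a fixed level of the other, an analysis added after the values were seen. At fixed Cd274, 16 genes (0.113%) had a positive and 6 (0.0424%) a negative slope on Cd8a. The 16 included the T cell genes Cd3g, Trac, Itgal and Ms4a4b and the plasmacytoid dendritic cell gene Siglech, and the 6 were Cxcl5, Psrc1, Dusp9, Mgp, Gm10282 and Gm10182. At fixed Cd8a, 530 genes (3.74%) had a positive and 45 (0.318%) a negative slope on Cd274, among them 16 of 24 interferon response genes, 10 of 10 MHC class I genes and 6 of 8 neutrophil genes. The 12 genes of the second ranking left without Amd2 and Col6a5 were positive on Cd274 in this fit (0.683 to 1.48), and 0 were on Cd8a. They were chosen by their SD in these same tumours, and the pair left out did not share their order over the tumours. Cd8a and Cd274 also moved together, and Cd8a rests on 61 to 469 counts per tumour. The counts in this fit therefore cannot be read as genes following Cd274 and not Cd8a. This fit was not repeated without ICT 63 and 82.

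The anchor genes took a larger part of the variance in ICT than in PBS tumours. A straight line on Ptprc took a median of 32.4% of a gene's variance in ICT and 17.6% in PBS, one on Cd8a 30.3% and 14.6%, and one on Cd274 27.4% and 16.5%. By chance such a line is expected to take a mean share of 11.1% for each anchor gene. The shares above are medians, for which no chance value was computed, so 11.1% is not their baseline. Since a line takes a part by chance, the shares cannot be read in full as variance that follows the anchor gene. With the line on Ptprc removed, the median SD ratio was 1.23, against 1.39 before, and 70.8% of genes still had the larger residual SD in ICT. For Cd8a the ratio was 1.25 (71.6% of genes) and for Cd274 1.27 (73.6%). Testing the residuals after Ptprc called 0 genes in either direction (limma; 1023 larger and 102 smaller at an unadjusted p below 0.05). Between the name series 8 and 6, 0 genes differed (edgeR, 5 tumours each, smallest adjusted p=0.451; 523 at an unadjusted p below 0.05; DESeq2 called 1 higher and 1 lower).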

How the data were processed

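RNA of whole tumours was sequenced as 100 bp single-end reads on a NovaSeq instrument. Per the labels and the study's methods, the authors used bcl2fastq 2.20.0.422, aligned with HISAT2 2.0.4 and counted reads on genes with SummariseOverlaps; the deposited values are raw counts, whole numbers without normalization. The study names the genome mm11; 36719 of 39676 gene identifiers (92.55%) match GENCODE M21 with their version, and coordinates are from that annotation on GRCm38. Strand mode and what was done with reads of several alignments are not given in the sources used here.

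Counts of the ICT and PBS tumours were filtered (filterByExpr), scaled by TMM and turned into log2 CPM with a prior count of 2 in edgeR 4.0.16 under R 4.3.3. Spread was tested with limma 3.58.1 on absolute deviations from the group median (trend and robust variance), slopes on each anchor gene with edgeR's quasi-likelihood test within the ICT tumours, single values by two-sided permutation tests (100000 resamples, or exact enumeration under 10 tumours). Adjusted p-values are Benjamini-Hochberg over all genes tested. Nothing in the labels says that tumours of a group share or do not share a source beyond 1 mouse each, so p-values measure the spread between these samples. The code was tested on simulated data. The members and gene lists were chosen with earlier results of these data known. Genes named are the anchor genes, the 15 with the largest SD whose mean was 1 log2 CPM or more, the genes with the smallest p on each anchor gene, and list members picked as examples; a ranking of coding genes and polymorphic pseudogenes, without Gm and Rik names, was added after the 15 proved to be pseudogenes, and a gene it would name is not reported here. Alternatives were DESeq2 1.42.0, its size factors and VST values, a prior count of 0.5, no filter, a mean count of at least 100, name series as a covariate, and leaving out tumours. Columns of the authors' own comparisons were not used, and 19 tumours of the other groups were not analysed here.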

Additional observations from a re-analysis of the deposited data

Results flagged for a closer look

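For 73 values, 1 tumour far from the rest was sought by Dixon's ratio of the gap to the whole range, at its 95% critical value for 10 samples. The values were over the 10 ICT tumours. Those of the anchor genes and of the distance from the group centre were also taken over the 10 PBS tumours. Of the 73, 1 stood out, and chance alone would give about 3.65. The summed level of skin epidermis and hair follicle genes had a ratio of 0.790, with ICT 82 at 44.2 CPM and the other 9 at 7.90 CPM or less. ICT 82 held 178 counts of Krt5, 115 of Krt17, 97 of Sfn and 75 of Krt14, keratins and a keratinocyte gene, while the other tumours held at most 27, 8, 38 and 26. ICT 82 also had the highest Cd8a level, and the part of skin in its other values was not tested.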

How the results depend on the processing

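Over 20 alternatives 66.8% to 84% of genes had the larger SD in ICT and the median ratio was 1.16 to 1.46. Taking the group mean or the median of each name series as the centre could not change these SDs. Another of the 20 used residuals after Ptprc, a different quantity. The limma spread test called 9 larger and 8 smaller genes without the filter and 0 in every other setting. At an unadjusted p below 0.05 it had 434 to 1994 larger and 16 to 309 smaller. The difference in distance was 0.0599 (permutation p=0.0722) at a mean count of at least 100, 0.0283 (permutation p=0.164) without ICT 63 and 82, 0.0292 (permutation p=0.219) without ICT 63 and 85, and 0.0425 to 0.0787 with 1 tumour left out. Slope counts without ICT 63 and 82 were 0 and 0 on Cd8a, 658 and 204 on Ptprc and 826 and 178 on Cd274, and in 1 fit 16 and 6 on Cd8a and 530 and 45 on Cd274. With 1 tumour left out they were 551 to 2188 and 230 to 1938 on Cd8a, 1328 to 2779 and 631 to 2365 on Ptprc, and 1117 to 2519 and 346 to 1845 on Cd274; the lowest were without ICT 63, and the cause was not tested. Cd8a with Cd274 had r=0.703 (exact permutation p=0.0515) on VST values; without the 2 farthest of the 8, r was 0.603 (exact permutation p=0.203), and 0.749 (exact permutation p=0.0889) with Ptprc. DESeq2 called 1 higher and 1 lower gene between the name series, and leaving out 1 tumour gave 0 to 1 lower. The ranking of coding genes alone shared 29 of the top 100, VST values 81, dispersion 84 and leaving out 1 tumour 81 to 98. The difference in absolute deviation was 0.250 to 0.531 for Cd8a, 0.135 to 0.269 for Ptprc and 0.251 to 0.518 for Cd274 with 1 tumour left out. Col6a5 reversed: its slopes on Cd8a, Ptprc and Cd274 (0.30, 0.31 and 0.08, none called) were -0.12, -0.56 and -0.37 without ICT 63, 0.69, 1.46 and 0.73 without ICT 85, and -1.60, -1.30 and -0.53 without ICT 63 and 82. Of the other comparisons, 229 values kept their direction and call or, for counts, stayed within 1.5 times. Of single genes and summaries 2066 were labelled unchanged, while 12 gained and 108 lost their call. The 2066 include SDs and SD ratios, which have no call and were labelled unchanged whatever their value.

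No paired analysis was possible because the ICT and PBS tumours share no replicate numbers. Cd8a at 61 to 469 counts per tumour limits its precision, and 10 tumours limit that of every SD. Response, cell composition and the order of events were not measured.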

Other observations

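Xist, the RNA of the inactive X chromosome and so a mark of female cells, was 8.99, 8.35, 9.71, 8.66 and 9.05 in ICT 61 to 65 and 9.11, 9.32, 8.85, 8.65 and 8.13 in ICT 81 to 85. It had a positive slope on Ptprc (0.67 ± 0.08, edgeR adjusted p=5.83e-05), highest in ICT 63 and lowest in ICT 85. The Y-linked genes Ddx3y, Eif2s3y, Kdm5d and Uty had 0 counts in all 10. Clock and glucocorticoid genes varied more in ICT than in PBS for 11 of 12 (median SD ratio 1.48), beside 80.1% of all genes and a median ratio of 1.39. Of these, 0 of 12 had a called slope on Cd8a or Ptprc and 1 of 12 on Cd274. The shares of all genes called were 15.7% positive and 13.7% negative on Cd8a, 18.2% and 16.4% on Ptprc, and 15.5% and 11.1% on Cd274. Immediate early and heat shock genes had a positive slope for 1, 2 and 2 of 11 on Cd8a, Ptprc and Cd274 and a negative one for 1 on Cd274. Endothelial genes summed to 270 to 318 CPM over the 10 tumours, a range of far less than that of the fibroblast or leukocyte lists, with 1 of 9 positive on each anchor gene and 1 of 9 negative on Cd8a and Ptprc.

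The 100 most variable genes were grouped by the average correlation between groups, cut at r of 0.5, so single pairs of genes may lie below it. The largest module held 31 genes, with a median SD of 1.36 in ICT and 0.861 in PBS. It held 3 pseudogenes, of which Rpl31-ps13 had the largest SD of the module. Ly6i, Ido1, Nos2 and Acod1 came next by SD, and Cd274 itself was in it. A second module held 9 genes, all pseudogenes. Positive slopes were called for 1, 1 and 0 of 6 eosinophil and mast cell genes on Cd8a, Ptprc and Cd274, for 1 of 9 adipose genes on each and for 0 of 2 mesothelial genes on each, beside 15.7%, 18.2% and 15.5% of all genes.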
